A study of Mus musculus with 6 samples.

Results

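Malat1 and Neat1 are neighbouring long noncoding RNAs of mouse chromosome 19 that stay in the nucleus, and their polyadenylated 3′ ends are described here. Members were the cleavage sites on the minus strand in 2 windows of the mm9 build, chr19:5794000-5803000 for Malat1 and chr19:5823000-5846000 for Neat1. A cluster joins neighbouring positions with gaps of no more than 24 nt. This gave 88 clusters (45 in Malat1, 43 in Neat1) of 931826 in all libraries. The windows held 24073 and 17941 reads.

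The study read 3′ ends of poly(A) RNA in V6.5 mouse embryonic stem cells (strain C57BL/6-129) to ask where cleavage moves when the U1 small nuclear ribonucleoprotein is inhibited. The 3 groups had 2 libraries each: untreated cells, a scrambled control for an antisense morpholino oligonucleotide (scrambled AMO), and the AMO targeting U1 (U1 AMO). All cells were of 1 line, and the labels call the libraries of a group biological replicates. Total reads were 38569397 and 60473882 in untreated, 26846406 and 62257923 in scrambled AMO and 15752080 and 57925358 in U1 AMO replicates 1 and 2. Distinct positions numbered 744611 and 500472, 804486 and 1039972, and 683584 and 1193338 in the same order, so they did not follow the total reads. Levels are given as CPM, the reads of a cluster divided by the total of its library and multiplied by 1000000. Rows carry no gene names and no annotation of the mm9 build was used here, so exons were not assigned and the cell-type label was not checked against marker genes. Read names placed replicate 1 of both AMO groups in 1 sequencing run and replicate 2 of both in another, while each untreated library had a run of its own. The U1 AMO and scrambled AMO were therefore also compared within each run, and untreated cells cannot be told apart from their runs. Both AMO libraries of replicate 1 were in lane 1 of their run. In the run of replicate 2 the scrambled AMO was in lane 1 and the U1 AMO in lane 2. Within that run the 2 AMO groups cannot be told apart from their lanes.

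Malat1 is one of the most abundant nuclear RNAs and collects in nuclear speckles, and Neat1 builds paraspeckles. The mature 3′ end of Malat1, and that of the long Neat1 isoform, is made by RNase P and closed by a triple helix in place of a poly(A) tail. The short Neat1 isoform ends at an ordinary polyadenylation site. Poly(A)-selected 3′ ends therefore count the polyadenylated molecules of these genes and not the full pool of either RNA. In most genes the cleavage machinery reads a hexamer, AATAAA or ATTAAA in its common forms, a short way 5′ of the cut, and U1 is known for suppressing cleavage at such sites inside transcripts.

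The files list a hexamer with each position, called its signal here, although whether it was used for cleavage was not tested. Adding its deposited distance to the position (the gene runs toward lower coordinates) gave a signal coordinate, and positions that share it were grouped under 1 signal. The signals listed for the main ends are given as the coordinate on chromosome 19 and the hexamer, in capitals because the whole hexamer is the signal.
Malat1 distal end, signal coordinate 5795712: AATAAA
Malat1 internal site, 3′ cluster, signal coordinate 5798366: AATAAA
Malat1 internal site, 5′ cluster, signal coordinate 5798420: AATAAA
Malat1 minor internal site, signal coordinate 5797604: ATTAAA
Malat1 5′ zone, signal coordinate 5801980: AAAAAA
Malat1 5′ zone, signal coordinate 5802270: AGTAAA
Malat1 5′ zone, signal coordinate 5802441: AAAAAG
Malat1 5′ zone, signal coordinate 5801868: AATAGA
Neat1 short isoform end, signal coordinate 5842327: AATAAA
Neat1 second end, signal coordinate 5842610: AATAAA
Malat1 had 69 such coordinates, of which 11 carried AATAAA or ATTAAA, and Neat1 had 54, of which 8 did. Only 12 in Malat1 and 5 in Neat1 had over 100 reads.

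Most Malat1 reads lay in 3 places. The distal cluster, chr19:5795637-5795703, held 42.9% of the window's level (mean of the 6 libraries) and ranked 3923 among all clusters by mean CPM. A pair of clusters at chr19:5798329-5798354 and chr19:5798382-5798417, 2651 and 2704 nt further 5′ by their strongest positions, held 9.17% and 30.5%. The other large group was a 5′ zone of 10 clusters lying over 5 kb 5′ of the distal end. Whether the reads of this zone mark cleaved ends was not tested. The remaining 32 clusters had 0.658% to 3.11% of the window's reads in a library. Of the 45 clusters, 12 were a single position and 9 had reads in all 6 libraries. Of the same 45, 28 had none in untreated cells, 7 had U1 AMO reads only and 6 had scrambled AMO reads only. These counts were not set against those over all clusters, and the libraries differed in distinct positions (given above).

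**Figure D1:**
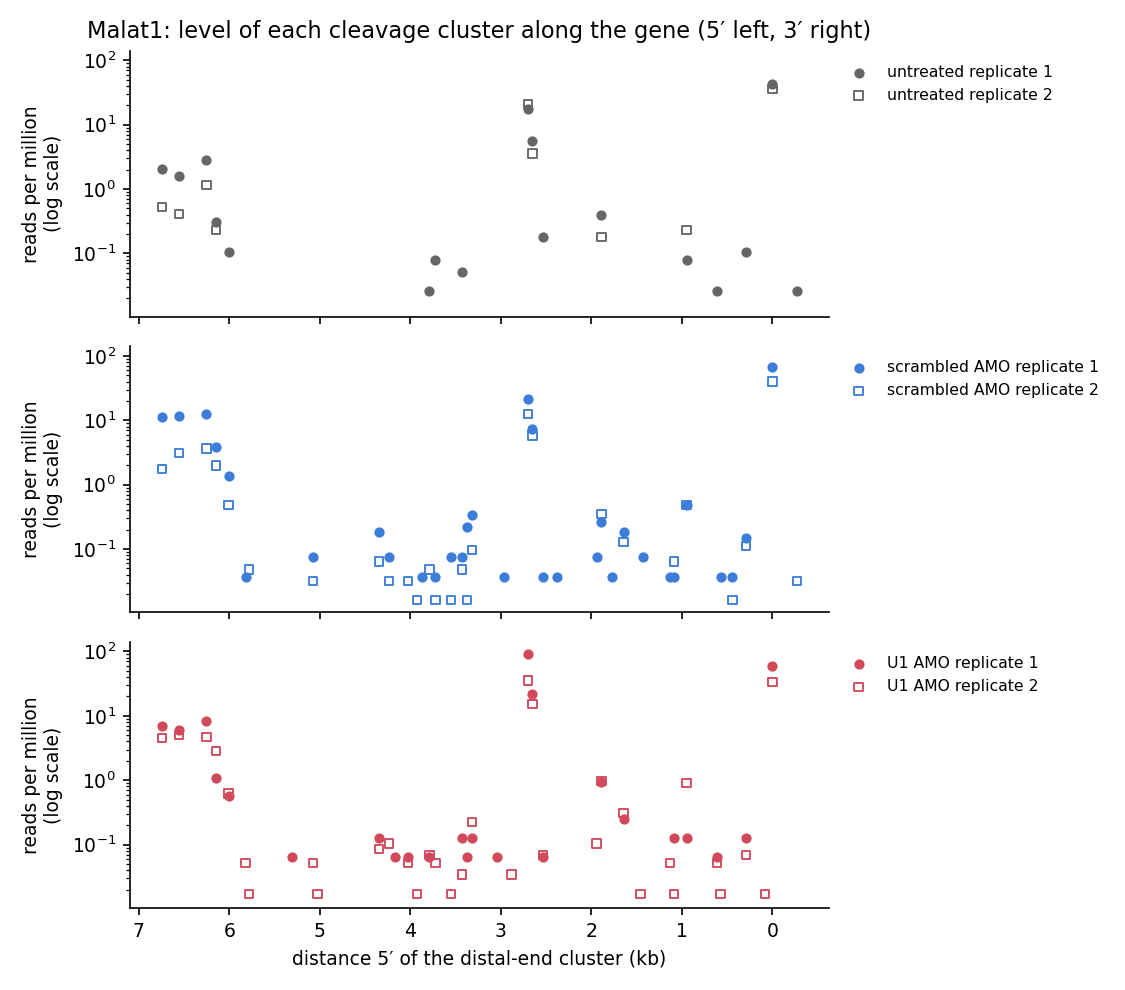
Level in CPM (log scale) of each Malat1 cluster with reads, by its distance in kb 5′ of the distal end, in 3 panels for untreated, scrambled AMO and U1 AMO (filled circles replicate 1, open squares replicate 2). The internal pair near 2.7 kb reached 91.4 and 35.5 CPM at its stronger cluster under the U1 AMO, above every other group.

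The U1 AMO was set against the scrambled AMO to ask which ends changed with U1 inhibition. The internal pair stood apart in both U1 AMO libraries, while the distal end did not. Summed over the pair, the level was 23.2 and 24.3 CPM in untreated cells, 28.5 and 18.4 under the scrambled AMO, and 113.4 and 50.8 under the U1 AMO. Both U1 AMO libraries were above all 4 others. The ratio of the U1 AMO mean to the scrambled AMO mean was 3.50, and it was 3.99 and 2.75 within the runs of replicates 1 and 2. In such bulk samples, a change in the number of cells and in RNA per cell cannot be told apart.

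The 5′ cluster of the pair, with most of its reads, had 17.6 and 20.7 CPM untreated, 21.0 and 12.7 under the scrambled AMO, and 91.4 and 35.5 under the U1 AMO. The U1 AMO libraries were highest, with U1 AMO replicate 1 well above replicate 2. Its Malat1 log2 fold change against the scrambled AMO was 1.87 ± 0.46 (SE, adjusted p = 0.140, edgeR quasi-likelihood test over 80049 clusters), which missed the 0.05 threshold. When only the 4 AMO libraries were fitted and their run was added to the model (the run term), it was 1.78 ± 0.17, and this passed (adjusted p = 2.01e-10, edgeR, 68821 clusters). DESeq2, without the run term, also passed it, at an adjusted p of 0.00685.

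The 3′ cluster of the pair had 5.55 and 3.57 CPM untreated, 7.41 and 5.78 under the scrambled AMO, and 22.1 and 15.3 under the U1 AMO. Here too both U1 AMO libraries exceeded all others, by 2.98 and 2.65 times the scrambled AMO level of the same run. The Malat1 log2 fold change was 1.48 ± 0.40 (adjusted p = 0.175, edgeR), 1.46 ± 0.18 with the run term (adjusted p = 1.13e-07) and 1.52 in DESeq2 (adjusted p = 0.0170). Against untreated cells it was 1.96 ± 0.40 (adjusted p = 0.0451, edgeR), the single member of either gene called in the 6-library fit in any of the 3 contrasts. Leaving out any 1 library other than untreated replicate 1 put that adjusted p over the threshold. The 3′ cluster held 19.3% ± 6.56 of the pair's reads untreated, 28.7% ± 3.76 under the scrambled AMO and 24.8% ± 7.55 under the U1 AMO (SD, n = 2). The U1 AMO libraries overlapped both other groups, while both scrambled AMO libraries were above both untreated ones.

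The fit with the run term leaves 1 residual degree of freedom. Its common dispersion over all clusters was 0.0244, against 0.329 in the fit of 6 libraries, and its p-values rest on that smaller spread. It called 13.4% of all tested clusters higher and 2.29% lower. In Malat1 it called 3 of 11 tested clusters higher and none lower, and the 6-library fit called 0 of 12, against 0.666% of all clusters called higher. At an unadjusted p under 0.05 the 6-library fit had 2 higher and 0 lower of the 12. Over all 80049 tested clusters it had 7105, both directions together. DESeq2 called 2 of the 12 higher, against 3.91% of all clusters. Both U1 AMO libraries lay above both scrambled AMO libraries at 4 of the 12 and below them at 0, against 20.8% and 14.3% of all tested clusters. The median log2 fold change of the 12 was -0.17 (0.23 for the 11 with the run term), against -0.02 for all clusters. A cluster had to pass a filter on low counts to be tested, which 2 libraries could satisfy, even of 1 group alone. Coverage differed among the 12. The cluster at chr19:5798949-5799007 had 0 and 0 reads untreated, 9 and 6 under the scrambled AMO and 2 and 13 under the U1 AMO.

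The third cluster called with the run term was a minor internal site with ATTAAA at chr19:5797560-5797597, 1890 nt 5′ of the distal end. It had 0.389 and 0.182 CPM untreated, 0.261 and 0.353 under the scrambled AMO, and 0.952 and 0.967 under the U1 AMO. Both U1 AMO libraries were highest, 3.65 and 2.74 times the scrambled AMO level of their run. In Malat1 its log2 fold change was 1.59 ± 0.73 (adjusted p = 0.671, edgeR) and 1.57 ± 0.47 with the run term (adjusted p = 0.0155). The fourth cluster without overlap, chr19:5797299-5797349, had no reads in untreated cells, 0.186 and 0.128 CPM under the scrambled AMO and 0.254 and 0.311 under the U1 AMO. It was picked out after its values were seen, and its strongest position also had AATAAA. It passed the filter on low counts through its U1 AMO libraries. Its place among the clusters higher there is therefore not independent of that filter.

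At the distal end the groups overlapped. The level was 43.3 and 35.8 CPM untreated, 66.3 and 39.9 under the scrambled AMO, and 60.1 and 34.0 under the U1 AMO. Scrambled AMO replicate 1 was highest and U1 AMO replicate 2 lowest. Within runs the U1 AMO was at 0.906 and 0.851 of the scrambled AMO, and the Malat1 log2 fold change was -0.20 ± 0.37 (adjusted p = 1, edgeR) or -0.21 ± 0.15 with the run term (adjusted p = 0.453). A fall at this cluster was not shown.

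**Figure D2:**
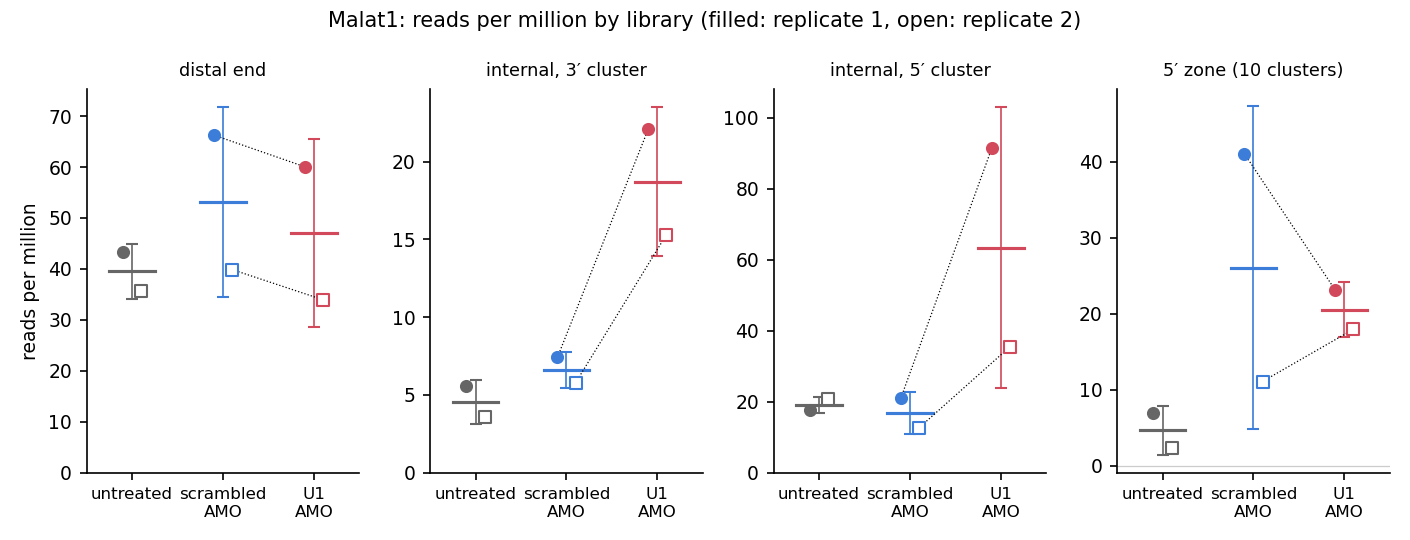
CPM in each library at the Malat1 distal end, the 2 clusters of the internal pair and the 5′ zone (filled circles replicate 1, open squares replicate 2, bars mean ± SD of 2 libraries, dotted lines join AMO libraries of 1 sequencing run). With the U1 AMO the stronger internal cluster reached 91.4 and 35.5. The distal end was at 60.1 and 34.0 and overlapped the other groups, with U1 AMO replicate 2 the lowest library.

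Counted against each other, the internal pair had more reads than the distal end in both U1 AMO libraries. For each distal read there were 0.535 and 0.680 internal reads in untreated cells, 0.429 and 0.462 under the scrambled AMO and 1.89 and 1.50 under the U1 AMO. The internal share of these reads was 65.4% (95% Wilson interval 63.6% to 67.1%) and 59.9% (58.6% to 61.3%) under the U1 AMO, and between 30.0% and 40.5% in the other 4 libraries. The mean was 62.7% ± 3.86 (SD, n = 2) under the U1 AMO, 30.8% ± 1.11 under the scrambled AMO and 37.7% ± 3.97 untreated. An exact two-sided permutation test over libraries gave p = 0.333 for each pair of groups, the smallest that 2 against 2 allow. PCR reads without molecular identifiers are not independent molecules, so these intervals cover counting error only.

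As a share of all Malat1 reads, the distal end had 58.2% and 56.9% in untreated cells, 47.9% and 56.2% under the scrambled AMO and 30.2% and 32.0% under the U1 AMO. The internal pair had 31.1% and 38.7%, 20.6% and 26.0%, and 57.0% and 47.9% in the same order. Reads outside the distal cluster made up 68.9% ± 1.32 under the U1 AMO, 48.0% ± 5.86 under the scrambled AMO and 42.4% ± 0.912 untreated (SD, n = 2; exact permutation p = 0.333). The 2 controls also differed from each other: the pair's share was 11.7 percentage points lower under the scrambled AMO (23.3% ± 3.82) than in untreated cells (34.9% ± 5.34), without overlap, while its level did not separate them. Counting each distinct position once in place of its reads, the differences between the U1 AMO and scrambled AMO were smaller and the groups overlapped: 0.786 in place of 20.9 percentage points outside the distal cluster, and 4.31 in place of 29.2 at the pair. The sum of these shares is fixed, so a larger 5′ zone lowers the others.

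**Figure D3:**
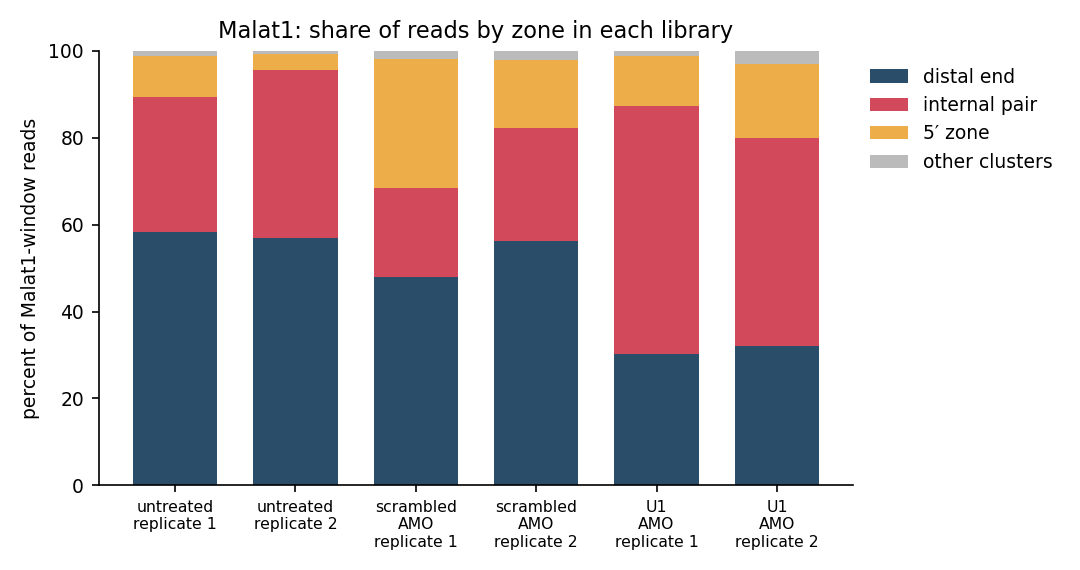
Percent of Malat1-window reads at the distal end, the internal pair, the 5′ zone and all other clusters, as stacked bars for each of the 6 libraries. The distal share is 30.2% and 32.0% in the U1 AMO libraries and 47.9% to 58.2% in the others, and the 5′ zone is largest, at 29.7%, in scrambled AMO replicate 1.

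The 5′ zone separated both AMO groups from untreated cells, and the 2 AMO groups overlapped. Its level was 6.95 and 2.33 CPM in untreated cells, 41.0 and 11.1 under the scrambled AMO and 23.1 and 18.0 under the U1 AMO. All 4 AMO libraries were above both untreated ones, and scrambled AMO replicate 1 was highest. The U1 AMO was at 0.563 and 1.62 of the scrambled AMO within the 2 runs, opposite directions. The zone's share of Malat1 reads was 9.35% and 3.71%, then 29.7% and 15.6%, then 11.6% and 16.9%.

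The 3 strongest clusters of the zone had the same highest and lowest libraries. The cluster at chr19:5801911-5801966 had 2.88 and 1.16 CPM untreated, 12.6 and 3.66 under the scrambled AMO and 8.44 and 4.71 under the U1 AMO. At chr19:5802153-5802298 the levels were 1.58 and 0.413, 11.7 and 3.13, and 6.09 and 5.09, and at chr19:5802411-5802565 they were 2.07 and 0.529, 11.4 and 1.73, and 6.86 and 4.52. In each, scrambled AMO replicate 1 was highest and untreated replicate 2 lowest. The cluster at chr19:5801829-5801863 had 0.311 and 0.232 CPM untreated, 3.87 and 1.99 under the scrambled AMO and 1.08 and 2.87 under the U1 AMO. The weakest of these, chr19:5801644-5801766, had 0.104 and 0 CPM, 1.34 and 0.482, and 0.571 and 0.621.

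Against untreated cells the scrambled AMO gave Malat1 log2 fold changes of 3.37 ± 0.74 at the cluster from 5801829 (adjusted p = 0.266, edgeR), 2.79 ± 0.84 at that from 5802153 (adjusted p = 0.282) and 1.92 ± 0.72 at that from 5801911 (adjusted p = 0.336). DESeq2 passed the first pair, at adjusted p = 0.00198 and 0.0203. In edgeR 0 of the 12 tested Malat1 clusters and 0% of all clusters in either direction were called in this contrast. At an unadjusted p under 0.05, 6 of the 12 were higher and none lower. Over all 80049 clusters 10490 were under that threshold, both directions together. DESeq2 called 2 of the 12 higher, against 1.71% of all clusters. Both scrambled AMO libraries lay above both untreated ones at 8 of the 12 and below at 0, against 26.5% and 16.8% of all clusters. The median log2 fold change of the 12 was 2.07, against 0.15 for all. For the U1 AMO against untreated cells 10 of the 12 were higher without overlap and 0 lower (33.9% and 19.6% of all), with a median of 1.99 against 0.23; edgeR called 1, against 4.39% of all clusters called higher and 0.505% lower, and DESeq2 called 5 higher and 0 lower, against 10.1% and 2.64% of all. Some of the 12 passed the filter on low counts through AMO libraries alone, such as those from 5797299 and 5798949, without untreated reads. For these a level above untreated cells followed from the filter. The counts and medians against untreated cells include them, and the values over all clusters carry the same filter. These contrasts share libraries, so their values are not independent of each other.

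The signals of the 5′ zone differed from those of the distal end and the pair. AATAAA or ATTAAA was listed for 99.8% to 100% of the reads of the distal end and 100% of those of the pair in every library, but for 0% to 4.12% of those of the zone. Over the 6 libraries AAAAAA had 24.1% to 41.1% of the zone's reads, AGTAAA 4.96% to 23.7%, AAAAAG 12.3% to 29.1% and AATAGA 4.48% to 21.0%, so their order differed between libraries. Its reads also carried a deposited whole number, running from 0 to 10 and of a meaning not given in the sources used here, at its top value of 10 in 45.9% to 72.0% of cases per library. At the distal end no read had that value and at the pair at most 2.07% did. Over the whole window, AATAAA or ATTAAA reads made up 90.0% and 95.9% untreated, 69.6% and 83.0% under the scrambled AMO and 88.3% and 81.6% under the U1 AMO. With the zone left out the group means were 99.4% ± 0.328, 98.0% ± 0.0885 and 98.5% ± 1.14 (SD, n = 2).

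Positions within the 3 main clusters varied little in the distal cluster and more in the pair. At the distal end the strongest position, 5795691, took 38.2% to 41.6% of the cluster's reads in each library and was the strongest in all 6. In the pair, 5798342 took 62.0% to 73.7% of its cluster and 5798395 took 37.3% to 59.5% of its own. The 5′ cluster of the pair also had a second listed signal, ATTAAA at coordinate 5798437, for 0.442% and 0.399% of its reads in untreated cells, 2.83% and 2.41% under the scrambled AMO and 2.71% and 2.48% under the U1 AMO. Both AMO groups were above untreated here and did not separate from each other.

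Summed over all clusters, polyadenylated Malat1 had 74.3 and 62.8 CPM in untreated cells, 138.3 and 71.0 under the scrambled AMO and 199.0 and 106.0 under the U1 AMO. The 2 AMO groups overlapped. Within runs the U1 AMO was 1.44 and 1.49 times the scrambled AMO. The Malat1 log2 fold change was 0.52 ± 0.41 (adjusted p = 1, edgeR), and 0.53 ± 0.14 with the run term, which passed (adjusted p = 0.00683). Against untreated cells it was 1.07 ± 0.41 (adjusted p = 0.175).

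Polyadenylated Neat1 ended almost wholly at its short isoform, while an end of the long isoform without a poly(A) tail was not counted. The cluster at chr19:5842287-5842414 held 91.7% of the window's level, ranked 2710 among all clusters and had 74 positions, of which those listed with the AATAAA at coordinate 5842327 took 99.1% of the reads. Its strongest position was 5842302 or 5842309, depending on the library, and 5842309 took 20.4% to 24.3% of the cluster's reads. A second end at chr19:5842523-5842602, 268 nt further 5′, had 5.30%, and the other 41 clusters were each under 1%. Of the 43 Neat1 clusters, 15 were a single position and 4 had reads in all 6 libraries. Of the same 43, 30 had none in untreated cells, 16 had U1 AMO reads only and 5 had scrambled AMO reads only. Here too the counts were not set against those over all clusters, and the libraries differed in distinct positions.

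**Figure D4:**
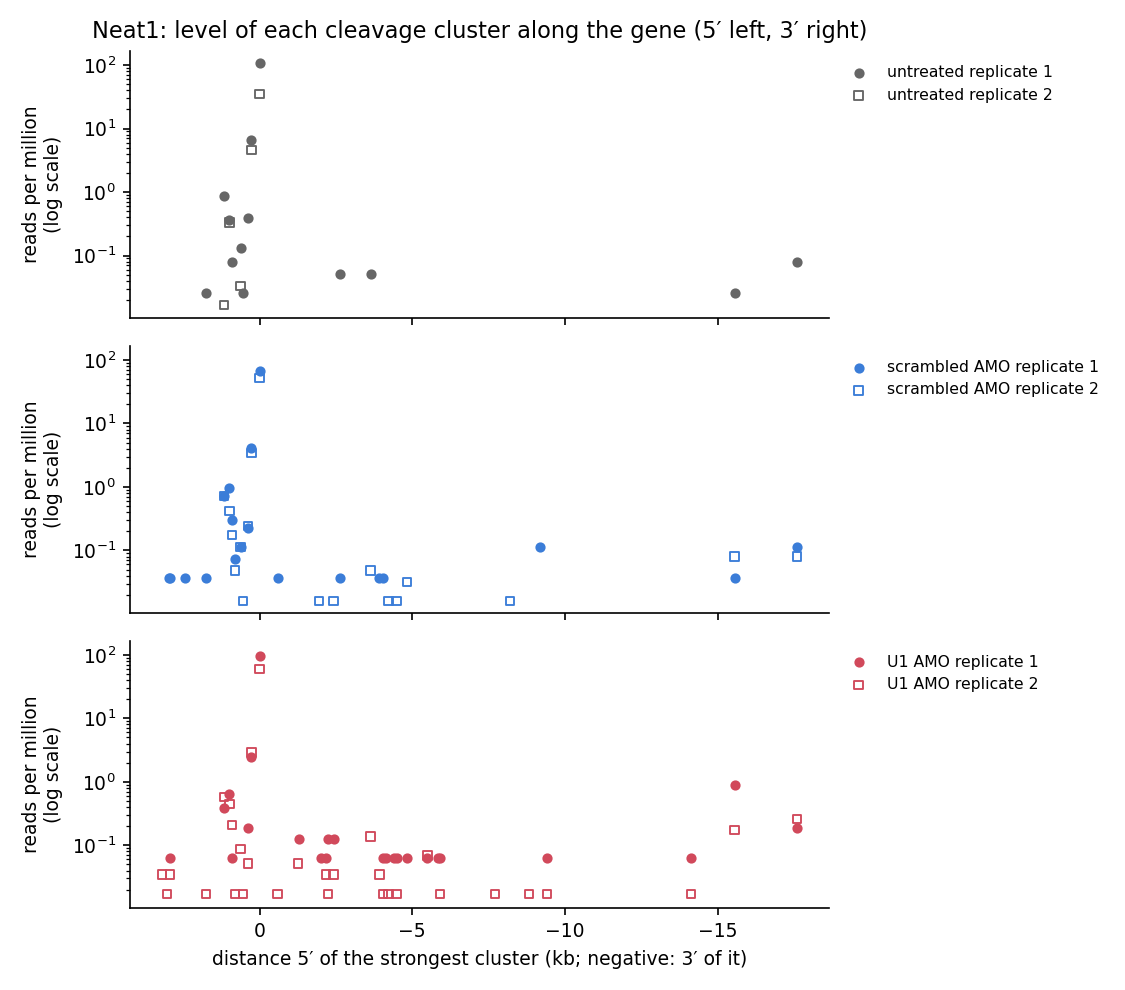
Level in CPM (log scale) of each Neat1 cluster with reads, by its distance in kb from the strongest cluster (5′ left, 3′ right, negative values 3′ of it), in 3 panels for untreated, scrambled AMO and U1 AMO (filled circles replicate 1, open squares replicate 2). Points 3′ of the short isoform end number 4 and 0 in the untreated libraries, 7 and 9 under the scrambled AMO and 17 and 18 under the U1 AMO, all under 1 CPM.

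The level of the short isoform end did not separate the groups. It was 108.4 and 34.7 CPM in untreated cells, 67.8 and 52.5 under the scrambled AMO and 94.3 and 60.6 under the U1 AMO. The 2 untreated libraries were the highest and the lowest of the 6. Within runs the U1 AMO was 1.39 and 1.15 times the scrambled AMO. The Neat1 log2 fold change was 0.33 ± 0.55 (adjusted p = 1, edgeR) and 0.32 ± 0.15 with the run term (adjusted p = 0.178).

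The sum over all Neat1 clusters ran the same way, at 117.1 and 39.7 CPM untreated, 74.9 and 58.0 under the scrambled AMO and 100.4 and 65.9 under the U1 AMO. Its Neat1 log2 fold change was 0.29 ± 0.53 (adjusted p = 1, edgeR) and 0.28 ± 0.15 with the run term (adjusted p = 0.252). Against untreated cells it was -0.31 ± 0.53 for the scrambled AMO and -0.02 ± 0.53 for the U1 AMO (adjusted p = 0.864 and 0.990). The direction of both turned when untreated replicate 1 was left out, to 0.82 and 1.09.

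At the second end the groups stood in order without overlap, although no test passed. It had 6.66 and 4.60 CPM untreated, 4.13 and 3.44 under the scrambled AMO and 2.48 and 2.88 under the U1 AMO. Both U1 AMO libraries were lowest and both untreated ones highest. The U1 AMO was at 0.599 and 0.839 of the scrambled AMO within runs. None of its Neat1 tests passed: the log2 fold change was -0.50 ± 0.43 for the U1 AMO against the scrambled AMO (adjusted p = 1, edgeR; -0.48 ± 0.26 and adjusted p = 0.266 with the run term) and -1.12 ± 0.43 against untreated cells (adjusted p = 0.176).

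Of 5 tested Neat1 clusters, edgeR called 0 in each contrast, and 0 of 4 with the run term. For the U1 AMO against the scrambled AMO, 0.666% of all clusters were called higher and 0% lower (13.4% and 2.29% with the run term). For the scrambled AMO against untreated cells it called 0% in either direction. For the U1 AMO against untreated cells it called 4.39% higher and 0.505% lower. At an unadjusted p under 0.05 there were 0 for the U1 AMO against the scrambled AMO (7105 of all 80049 clusters in either direction). For the scrambled AMO against untreated cells there were 0 (10490 of all). For the U1 AMO against untreated cells 1 was lower (19038 of all). With the run term 1 of the 4 was higher (16553 of all 68821). DESeq2 called 0 in each contrast. Of all clusters it called 3.91%, 1.71% and 10.1% higher and 0%, 1.11% and 2.64% lower, in the same order. Both U1 AMO libraries lay below both scrambled AMO libraries at 3 of the 5 and above them at 0, against 14.3% and 20.8% of all tested clusters. In each contrast with untreated cells 1 of the 5 was higher and 1 lower without overlap (26.5% and 16.8% of all clusters for the scrambled AMO, 33.9% and 19.6% for the U1 AMO). The medians of the 5 were -0.50, 0.22 and 0.01 for the 3 contrasts in the order given.

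The remaining pair of named clusters lay 5′ of the short isoform end and lacked AATAAA and ATTAAA. The cluster at chr19:5843278-5843299, with ACTAAA, had 0.363 and 0.331 CPM untreated, 0.968 and 0.418 under the scrambled AMO and 0.635 and 0.449 under the U1 AMO. That at chr19:5843423-5843479, mostly with AACAAT, had 0.882 and 0.0165, 0.708 and 0.723, and 0.381 and 0.570. The first was higher in all 4 AMO libraries than in either untreated one, and the second differed most between the 2 untreated libraries. All 12 clusters lying over 500 nt 5′ of position 5842300 together had 1.28% and 0.959% of Neat1 reads untreated. They had 3.08% and 2.57% under the scrambled AMO and 1.14% and 2.20% under the U1 AMO, and none of their reads had AATAAA or ATTAAA.

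Reads 3′ of the short isoform end, in the stretch that only the long Neat1 isoform covers, were few and were most frequent under the U1 AMO. The 28 clusters there had 8 and 0 reads in untreated cells, 11 and 20 under the scrambled AMO and 35 and 56 under the U1 AMO. They fell in 4 and 0, 7 and 9, and 17 and 18 of the clusters. Distinct positions in the whole library were 744611 and 500472, 804486 and 1039972, and 683584 and 1193338, and the numbers of clusters were not adjusted for them. As a share of Neat1 reads this was 0.177% and 0% untreated, where 3 reads of 2399, the limit taken for a count of 0, are 0.125% (the 95% Wilson upper limit is 0.160%). It was 0.547% and 0.554% under the scrambled AMO and 2.21% (95% Wilson interval 1.60% to 3.06%) and 1.47% (1.13% to 1.90%) under the U1 AMO.

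Both U1 AMO libraries were above all others in this share and in level, which was 2.22 and 0.967 CPM against 0.410 and 0.321 under the scrambled AMO, 5.42 and 3.01 times as high within runs. The exact two-sided permutation p was 0.333, the smallest possible. None of the 28 clusters passed the filter on low counts. In edgeR with no filter, over all 931826 clusters, 0 of the 28 were called for the U1 AMO against the scrambled AMO, and 0 had an unadjusted p under 0.05, against 0.311% of all clusters called higher and 0.00161% lower. Of all clusters 9985 had an unadjusted p under 0.05 in this contrast. Against untreated cells 0 of the 28 were also called for the scrambled AMO (0.118% of all clusters higher, 0.0192% lower) and for the U1 AMO (0.688% and 0.0821%). At an unadjusted p under 0.05 there were 0 and 1 of the 28, and 18850 and 31743 of all clusters. The cluster at chr19:5826750-5826768, with AATAAA, had 1 and 0 reads untreated, 1 and 5 under the scrambled AMO and 14 and 10 under the U1 AMO. The last cluster of the window, chr19:5824709-5824712, with AAAAAG, had 3 and 0, 3 and 5, and 3 and 15 reads. Both were picked out after their values were seen. The short isoform zone was the 3 clusters whose strongest position lay within 500 nt of position 5842300, so it includes the second end. It kept 98.5% and 99.0% of Neat1 reads untreated, 96.4% and 96.9% under the scrambled AMO and 96.6% and 96.3% under the U1 AMO. With a zone of 200 nt, which leaves out the second end, the differences between groups turned direction.

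**Figure D5:**
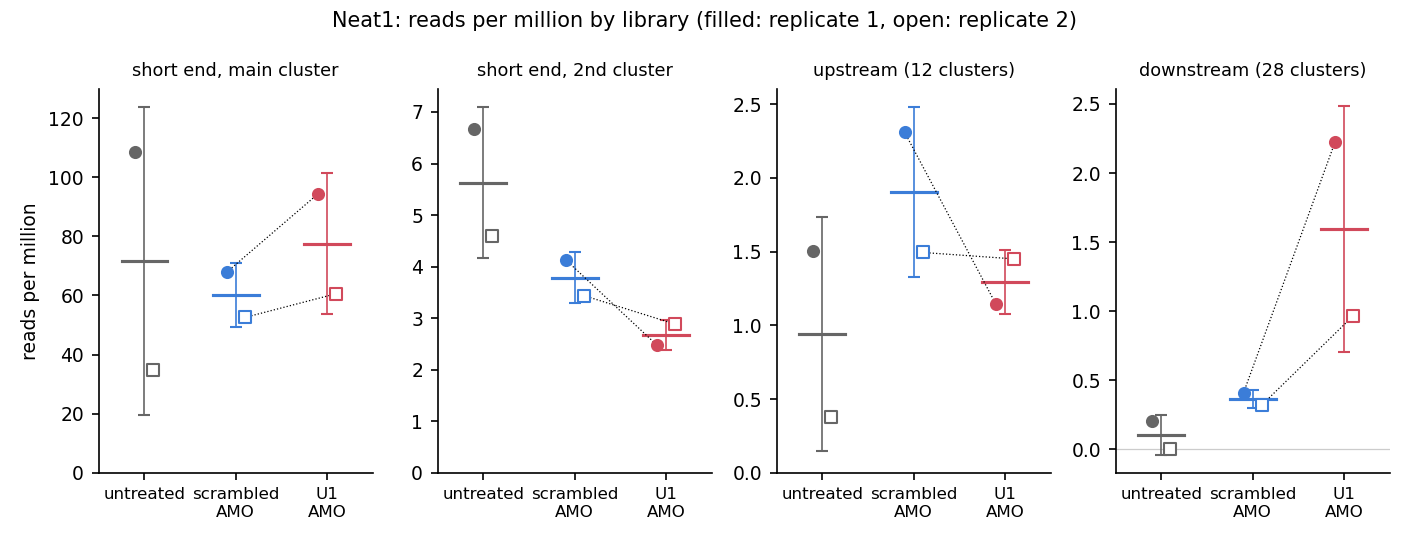
CPM in each library at the main and second clusters of the Neat1 short isoform end and summed over the clusters upstream and downstream of it (filled circles replicate 1, open squares replicate 2, bars mean ± SD of 2 libraries, dotted lines join AMO libraries of 1 sequencing run). Downstream the U1 AMO libraries, at 2.22 and 0.967, stand above the scrambled AMO at 0.410 and 0.321, while the main cluster overlaps between groups.

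The share of reads with AATAAA or ATTAAA varied less between libraries in Neat1 than in Malat1. AATAAA or ATTAAA reads made up 96.7% and 96.1% untreated, 94.7% and 95.0% under the scrambled AMO and 96.5% and 95.1% under the U1 AMO, a span within the 6 libraries that was smaller than between the 2 scrambled AMO libraries of Malat1. The difference between the U1 AMO and scrambled AMO was 0.937 percentage points (exact permutation p = 0.333).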

How the data were processed

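Per the labels, poly(A)-selected RNA was cut with RNase T1, reverse transcribed, gel-selected, circularised and amplified by PCR for HiSeq sequencing. Cutadapt, Bowtie and the mm9 build are named, per the submitters' processing notes; tool versions and the site filter were not given in the sources used here. The authors deposited 1 list of cleavage positions per library with a raw read count, a score-like whole number from 0 to 10 of unstated meaning, a hexamer and its distance; positions without a hexamer were not analysed here.

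The 6 libraries gave 2341170 positions, joined on each strand across gaps of up to 24 nt. Clusters were tested with edgeR 4.0.16 (quasi-likelihood; R 4.3.3; TMM, filterByExpr, 6 libraries, 3 groups) over all 80049 clusters kept, Benjamini-Hochberg adjusted, called under 0.05; for gene sums the window's clusters became 1 row. DESeq2 1.42.0 was an alternative. Standard errors came from the fold change and its F statistic. Shares were compared by exact two-sided permutation tests. Other values came from Python 3.11.15 (scipy 1.17.1). The fit was also run on simulated data with fold changes larger than those of the internal pair in the 6-library fit. Recovery of changes as small as those of the pair was not tested.

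Replicate numbers 1 and 2 of both AMO groups are sequencing runs by the read names; deviations from group means correlated at r = 0.784 within a number for the AMO groups, -0.421 for scrambled AMO and untreated and -0.372 for U1 AMO and untreated (29450 clusters). The fit of the 4 AMO libraries with this number as a replicate block is the run term. Nothing says that a number marks a shared culture, so p-values measure the spread between these libraries.

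Named clusters were the strongest of each window, those with at least 1% of its level, those called in the 6-library fit and the 3 highest and 3 lowest fold changes with the run term. The members, lists and tests were chosen with earlier results of these data known. Lists of partner genes and of cell-type markers were not used here, since they needed an annotation of the build.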

Additional observations from a re-analysis of the deposited data

Results flagged for a closer look

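On the strand opposite to Malat1, which enters no comparison of the report, a cluster at chr19:5802947-5802983 with ATTAAA had reads under the U1 AMO above the level in control cells. It had 0 and 0 reads in untreated cells, 1 and 1 under the scrambled AMO and 5 and 14 under the U1 AMO. The 19 pooled U1 AMO reads against 2 under the scrambled AMO gave a ratio of levels of 11.5 (95% counting interval 2.77 to 101.7), which covers counting error only and was not tested over libraries. The only other cluster of the opposite strand in either window with over 1 read, chr19:5844778-5844790 in the Neat1 window, had 0 and 0, 2 and 3, and 0 and 7 reads in the same order.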

How the results depend on the processing

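Over all clusters, 533 were called for the U1 AMO against the scrambled AMO. The number was 0 with a replicate block in 6 libraries, 2590 with 4 libraries, 10769 with a replicate block in 4 libraries, 2402 with edgeR's newer dispersion method, 3127 with DESeq2, 2912 with no filter and 0 to 2951 when 1 library was left out. For the scrambled AMO against untreated, with 0 called (10490 at an unadjusted p under 0.05), DESeq2 called 2256, no filter gave 1279 and leaving out 1 library 0 to 22. For the U1 AMO against untreated, with 3916, the replicate block gave 0 in 6 and 0 in 4 libraries, 4 libraries gave 1393, the newer method 10489, DESeq2 10184, no filter 7175 and leaving out 1 library 1015 to 8760. The same-number correlation was under -0.1 in both contrasts with untreated cells, whose libraries share no run with the AMO libraries; a block with the replicate numbers crossed, chosen after seeing the data, called 0 for the scrambled AMO and 4649 for the U1 AMO. The sum of Malat1 clusters for the U1 AMO against the scrambled AMO passed with the replicate block in 4 libraries, at 0.53, and in no other setting.

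Direction turned as follows, and the cause was not tested. For the sum of Neat1, U1 AMO against untreated (-0.02), the replicate block gave 0.14, 4 libraries 0.0131, both together 0.23, the crossed block 0.23, RLE factors 0.0332, library size alone 0.0844, DESeq2 0.0333 and leaving out 1 library -0.63 to 1.09; for the scrambled AMO against untreated leaving out 1 library gave -0.90 to 0.82. A short isoform zone of 200 nt, which leaves out the second Neat1 end, changed the differences in its share from -0.130, -2.17 and -2.30 to 2.39, 0.557 and 2.95 percentage points, and those upstream against untreated to -1.02 and -4.70; leaving out 1 library moved the first to between -0.382 and 0.121. The Neat1 share with AATAAA or ATTAAA, U1 AMO against untreated, ran from -1.35 to 0.120. Malat1 reads outside the distal cluster differed by -5.68 points between scrambled AMO and untreated with the 5′ zone left out (5.52 with it). Counting positions in place of reads, the share of the Malat1 pair was -17.6 points for the U1 AMO against untreated (17.5 by reads) and 4.31 against the scrambled AMO (29.2 by reads), and that outside the distal cluster was 0.786 against the scrambled AMO (20.9 by reads).

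Among named clusters (log2 fold changes), those of Malat1 from 5802411 turned to 0.37 with a replicate block and 0.29 in 4 libraries with it (-0.20 without) and from 5798329 to -0.0612 for the scrambled AMO against untreated with positions joined over 50 nt. For U1 AMO against untreated, Neat1 from 5842287 turned to -0.00173 without chromosome M and -0.0365 with no filter, and from 5843423 to -0.0448 with positions joined over 10 nt. Leaving out 1 library gave these ranges. For the U1 AMO against the scrambled AMO, Malat1 clusters ran from -0.48 to 0.13 at 5795637, -1.07 to 0.21 at 5801644, -1.48 to 0.14 at 5801829, -0.88 to 0.69 at 5801911, -0.98 to 0.71 at 5802153 and -0.94 to 1.57 at 5802411, and Neat1 from -0.78 to 0.23 at 5843278. For the scrambled AMO against untreated, Malat1 ran from -0.38 to 0.87 at 5797560 and -0.46 to 0.0249 at 5798382, and Neat1 from -0.93 to 0.87 at 5842287 and -0.37 to 5.30 at 5843423. For the U1 AMO against untreated, Malat1 ran from -0.0341 to 0.52 at 5795637, and Neat1 from -0.62 to 1.18 at 5842287 and -0.93 to 4.72 at 5843423.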

Other observations

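The RefSeq promoter of Malat1, 250 bases before to 50 after its start, is shown. The clusters of the 5′ zone and the opposite-strand cluster lie toward this side of the gene. The promoter is on the minus strand of GRCm38.p6, another build than that of the reads, at chr19:5802623-5802922, and capitals mark the AATAAA found in it.
Malat1 promoter: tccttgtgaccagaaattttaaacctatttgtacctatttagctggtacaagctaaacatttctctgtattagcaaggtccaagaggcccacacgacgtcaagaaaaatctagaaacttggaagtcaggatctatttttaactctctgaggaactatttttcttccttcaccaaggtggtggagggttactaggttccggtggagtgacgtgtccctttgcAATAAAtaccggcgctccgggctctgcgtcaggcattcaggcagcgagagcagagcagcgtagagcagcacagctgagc
The search covered both common signals and a common 5′ splice site, GGTAAG, on both strands. The hexamer AATAAA matched 1 time, on the sense strand 29 nt before the start, and 11.3% of 32851 promoters of the same length hold it anywhere on that strand. The hexamer ATTAAA did not match, and 7.68% of promoters hold it on the sense strand. The splice site did not match on either strand, and 5.65% of promoters hold it on the sense strand and 4.25% on the antisense strand. Neat1 is not in that table.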
